A study of Drosophila melanogaster with 12 samples.

Results

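The comparison is between the G2 and the G1 fraction of wing disc cells, each measured on 3 arrays, which are 6 of the 12 arrays of the series. The arrays were chosen by their titles and paired by the number in the title, which gave pairs 2, 3 and 4. Wing discs came from wandering OreR larvae of instar 3, a wild-type strain, grown at 25 °C. After dissociation, cells were gated on DNA content, with 2C cells taken as G1 and 4C cells as G2, and nothing else distinguishes the groups in the labels. The 4C gate also takes in cells in mitosis. The other 6 arrays hold the embryo-derived S2 line, grown in culture and sorted in the same way. The labels do not say whether pairs were separate dissections, and the p-values therefore cover only the variation among these 6 arrays, which may be technical.

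In G1 a cell prepares for replication by loading the MCM helicase onto origins, and the E2F and retinoblastoma proteins with Cyclin E govern entry into S phase. In G2 it prepares for mitosis, in which the spindle, the kinetochores and the anaphase-promoting complex separate the chromosomes. The wing disc is the epithelial sac that forms the adult wing and notum (the back of the thorax). It also carries muscle precursors, tracheal cells and a thin peripodial layer, and some of its cells leave the ordinary cycle, such as the sensory organ precursors that form bristles and the cells at the wing margin, which pause in G1 or in G2 according to position.

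All levels are log2 intensities, and a change is the G2 level minus the G1 level on the log2 scale with the standard error (SE) of a limma fit that includes the pair, from 3 arrays per group. A gene is said to rise or fall only where its adjusted p was under 0.05 over all 7930 probe sets tested. Values of arrays are given in the order of pairs 2, 3 and 4. Array medians were 4.30 to 4.37, 41.7% to 42% of probe sets reached 5 on each array, and any 2 disc arrays correlated at 0.9756 to 0.995. Of the 7930 probe sets, 1913 (24.1%) differed between the fractions, 1208 of them higher and 705 lower in G2. Without pair 2 this count was 518 and without pair 4 it was 583. By gene, with 1 probe set each, 1619 of 6445 (25.1%) differed, with 1023 higher in G2 (15.9%) and 596 lower (9.25%). The falls were larger than the rises. The gene lists used here held 807 distinct tested genes, and members without a probe set or under the filter on dim probe sets (log2 of 5 on 3 of the 6 arrays) are not among them. The median rise was 0.39 and the median fall was -0.55, and 137 genes fell at least 2-fold against 64 that rose as much. The share of calls that were higher depends on scaling and on the arrays fitted. It was 63.1% here, 48.0% after cyclic loess (841 higher and 910 lower) and 68.9% after subtraction of array medians. Without pair 2 it was 41.5% (215 higher and 303 lower) and without pair 4 42.5% (248 and 335), against 66.0% without pair 3. It was 53.7% without the pair in the fit and 50.1% with no filter on dim probe sets.

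**Figure D1:**
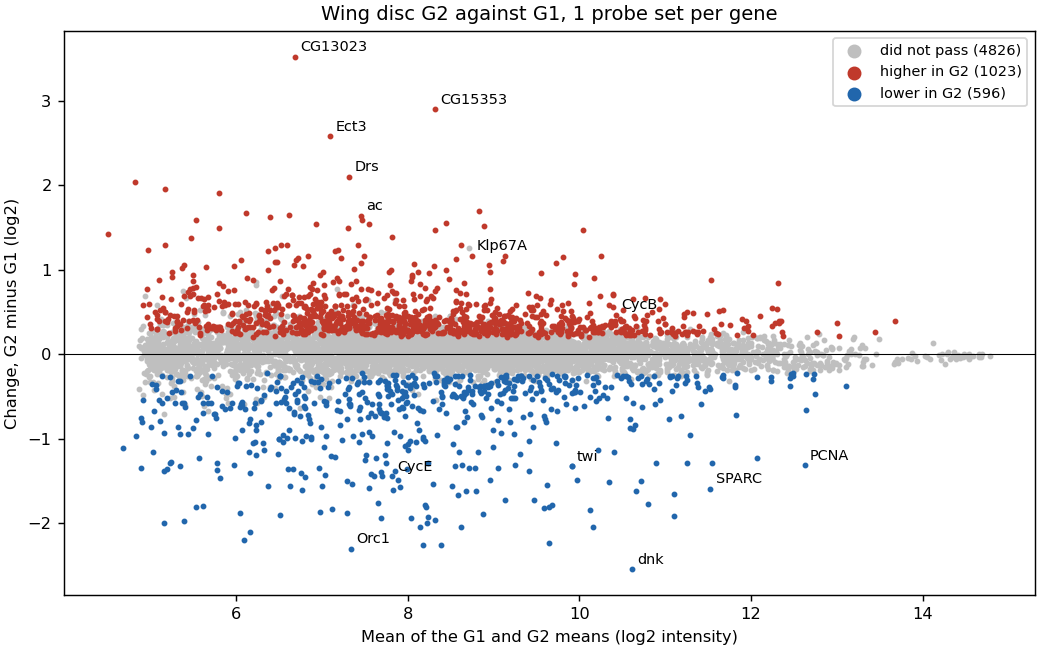
Change between the fractions (log2, G2 minus G1) against mean level (log2 intensity) for 6445 genes, with 1 point per gene. Red points (1023) rose, blue points (596) fell and grey points did not pass; the blue points reach farther from 0 on average, with 137 falls and 64 rises of at least 2-fold.

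In bulk fractions, more or fewer cells of a type and more or less RNA per cell cannot be told apart. The sort was checked first with genes of known phase. RnrL (CG5371), the large subunit of ribonucleotide reductase, was at 12.03, 12.07 and 12.08 in G1 and at 10.20, 10.15 and 10.10 in G2. PCNA (CG9193), the sliding clamp of the replication fork, was at 13.24, 13.32 and 13.27 in G1 and at 12.03, 11.95 and 11.92 in G2. The fractions did not overlap for either gene, and the arrays of a fraction lay close together. CycE (CG3938), the cyclin of the G1/S transition, went from 8.41, 8.62 and 8.57 to 6.98, 7.07 and 7.24, a change of -1.44 ± 0.07 (adjusted p = 0.000702). Among the mitotic cyclins, CycB (CG3510) was at 10.02, 10.25 and 10.32 in G1 and at 10.69, 10.66 and 10.65 in G2. CycB thus rose by 0.47 ± 0.08 (adjusted p = 0.0216), a call that was lost without pair 2 or pair 4 (adjusted p = 0.0683 and 0.0604). CycB3 (CG5814) was at 8.97, 8.96 and 8.97 in G1 and at 8.96, 8.89 and 9.0 in G2 (-0.01 ± 0.06, adjusted p = 0.863), and its sign turned after subtraction of array medians (0.01) and without pair 3 (0.01). RnrL, PCNA and CycE each fell by more than 1 on the log2 scale, and neither of these mitotic cyclins moved by as much.

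**Figure D2:**
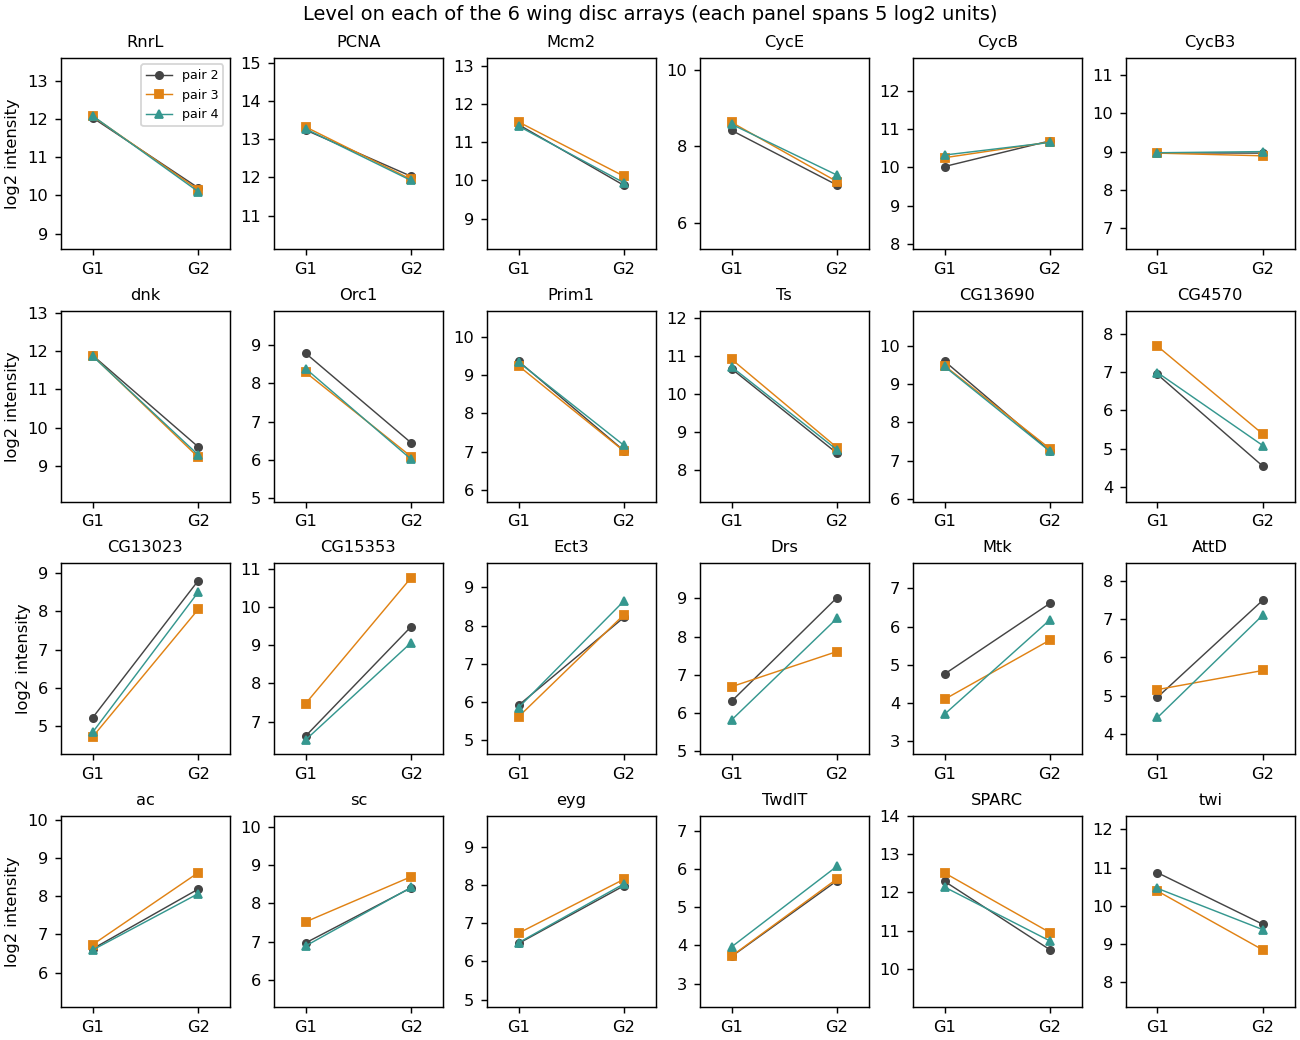
Level of each gene (log2 intensity) on the G1 and the G2 array of pairs 2, 3 and 4, with a line joining the arrays of a pair and every panel drawn over the same span. RnrL, PCNA, Mcm2 and CycE fell in each pair, CycB rose by less, CycB3 lay between 8.89 and 9.0, and in Drs and AttD pair 3 rose less than the other pairs.

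Every tested gene that licenses replication origins fell in G2. The list names 16 genes, of which 12 have a probe set, and all 12 were tested. Of these 12 genes 12 fell, with a median change of -1.62, and the count was 12 without any one of the pairs. Orc1 (CG10667), the largest subunit of the origin recognition complex, was at 8.79, 8.29 and 8.39 in G1 and at 6.45, 6.09 and 6.02 in G2, a change of -2.30 ± 0.06 (adjusted p = 0.000428). dup (CG8171), the Cdt1 that loads the MCM helicase, was at 10.51, 10.53 and 10.45 in G1 and at 8.66, 8.63 and 8.72 in G2. It fell by 1.82 ± 0.06 with almost the same change in each pair. Mcm10 (CG9241), which joins the helicase as it starts, fell by 1.96 ± 0.06. Among members named after their values were seen, the helicase subunits dpa (Mcm4) at -1.78, Mcm5 at -1.77, Mcm3 at -1.62, Mcm2 at -1.50 and Mcm6 at -1.28 formed a narrow group. The origin subunits ran more widely, from -2.30 in Orc1 through -1.61 in Orc2 and -1.34 in Orc5 to -1.13 in Orc4, and Cdc6, a loading factor, had the smallest change at -1.01.

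The genes that fire the loaded helicase were split. Their median change was -1.13, and of 9 tested 6 fell while 3 did not pass. RecQ4 (CG7487), a helicase needed for initiation, was at 7.43, 7.56 and 7.41 in G1 and at 5.60, 5.65 and 5.44 in G2 (-1.90 ± 0.06). Cdc45 (CG3658), a part of the active helicase, went from 10.36, 10.27 and 10.34 to 8.71, 8.59 and 8.52 (-1.72 ± 0.06). Sld5 (CG14549), of the GINS complex that completes that helicase, fell by 1.31 ± 0.08. The members of GINS did not move alike, with Psf1 at -1.38, Psf3 at -0.43 and Psf2 at 0.09 ± 0.05 (adjusted p = 0.258). The kinase Cdc7 and its activator chif, which trigger firing, were at -0.16 ± 0.07 (adjusted p = 0.168) and 0.18 ± 0.07 (adjusted p = 0.105). All 3 genes that did not pass had arrays of the fractions that overlapped.

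Polymerase and fork genes fell in all 22 tested members, with a median of -1.33, and 21 fell without pair 2 or without pair 4. Prim1 (CG7108), the catalytic primase subunit, was at 9.36, 9.24 and 9.34 in G1 and at 7.02, 7.01 and 7.16 in G2 (-2.25 ± 0.06). PolE2 (CG10489), of polymerase epsilon on the leading strand, was at 9.21, 9.04 and 9.34 in G1 and at 7.28, 7.14 and 7.43 in G2 (-1.92 ± 0.05). The primase and polymerase alpha genes, which start each strand, were at -2.25 (Prim1), -1.93 (PolA2), -1.83 (Prim2) and -1.44 (PolA1). The genes of the clamp loaders differed by subunit. cutlet (CG33122), of an alternative loader, fell by 1.88 ± 0.06 and elg1, of the unloader, by 1.19. Gnf1, the large subunit of the standard loader, was at -0.90. The small subunits that the loaders share were at -0.83 (RfC38), -0.73 (RfC4) and -0.37 (RfC3, adjusted p = 0.0174). RfC3 was the only one of the 22 genes whose call was lost without the pairing term (adjusted p = 0.137). Ctf4 (CG13350), which ties polymerase alpha to the helicase, went from 9.12, 9.13 and 9.25 to 7.14, 7.16 and 7.08 (-2.04 ± 0.07). It was written on the list as ctf4, a form that was not matched to a gene symbol, so it is not among the 22.

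Supply of DNA precursors was divided. Of 11 genes of nucleotide supply 4 fell and 1 rose, and the 4 that fell act on deoxynucleotides. dnk (CG5452), the deoxyribonucleoside kinase of the salvage route, had the largest fall of any gene under the naming rule, from 11.89, 11.88 and 11.87 to 9.50, 9.23 and 9.29 (-2.54 ± 0.07, adjusted p = 0.000428). Ts (CG3181), thymidylate synthase, was at 10.66, 10.91 and 10.71 in G1 and at 8.45, 8.60 and 8.54 in G2 (-2.23 ± 0.06). RnrL fell by 1.91 ± 0.06, and dUTPase, which removes dUTP, by 0.66 ± 0.06. Genes of purine and pyrimidine synthesis, which also feed RNA, ran from -0.18 (Gart) to 0.21 (Pfas, the only riser, whose call was lost without any one of the pairs). The list as first written includes Nfs1, a cysteine desulfurase at 0.08 that does not belong to it. With Nfs1 left out, a choice made after the counts were seen, the median moved from 0.03 (-0.01 after cyclic loess) to -0.08 and the calls stayed 1 and 4.

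Genes of chromatin assembly were lower as well. Of 14 genes of histone chaperones and variants 10 fell and 0 rose, with a median of -0.39 (6, 9 and 5 fell without pairs 2, 3 and 4). asf1 (CG9383), a chaperone for histones H3 and H4, went from 10.67, 10.77 and 10.70 to 9.19, 9.31 and 9.18 (-1.49 ± 0.05). Slbp (CG11886), which binds the stem loop of histone messages, went from 10.54, 10.65 and 10.53 to 9.17, 9.33 and 9.27 (-1.32 ± 0.06). Both subunits specific to chromatin assembly factor 1 fell as far, CG12109 at -1.44 and CG12892 at -1.36 ± 0.07, while another subunit, CG4236, part of several other complexes as well, fell by 0.34. The chaperones of the transcription-coupled factor FACT, Ssrp and dre4, fell by 0.40 and 0.38. Hira, which deposits the replacement histone outside replication, was at 0.10 and did not pass. cid (CG13329), the centromeric histone, was at 7.68, 7.41 and 7.30 in G1 and at 6.05, 6.16 and 5.98 in G2 (-1.40 ± 0.09, adjusted p = 0.00179), whereas its loading factor cal1 was at -0.21 and did not pass.

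The 34 genes of DNA damage and repair comprised 11 falls and 3 rises around a median of -0.05 (7, 9 and 6 fell without pairs 2, 3 and 4). The rises numbered 1, 4 and 1 in the same settings. WRNexo (CG7670), an exonuclease related to the Werner syndrome protein, was at 11.22, 11.19 and 11.14 in G1 and at 9.27, 9.02 and 9.15 in G2 (-2.04 ± 0.07). mms4 (CG12936), the partner of the Mus81 nuclease, was at 9.10, 9.03 and 9.13 in G1 and at 7.03, 7.56 and 7.34 in G2 (-1.78 ± 0.12), while mus81 itself was at 0.09 and did not pass. Msh6 (CG7003), of mismatch repair, fell by 0.86 ± 0.05, though its levels differed between pairs by 0.63. Ku80, which starts end joining, rose from 6.31, 6.91 and 6.29 to 7.22, 7.48 and 7.12 (0.77 ± 0.09, adjusted p = 0.00715). The checkpoint kinase genes grp, lok and mei-41 were at 0.01, -0.05 and 0.07 and did not pass.

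Control genes of the G1/S step split by direction. The 21 tested comprised 8 falls and 4 rises (2 rises after cyclic loess) around a median of -0.04. Skp2 (CG9772), of a ubiquitin ligase, fell from 10.75, 10.75 and 10.84 to 9.62, 9.71 and 9.62 (-1.13 ± 0.06). Rbf (CG7413), the retinoblastoma protein, fell from 8.54, 8.63 and 8.57 to 7.66, 7.79 and 7.61 (-0.89 ± 0.06), and its relative Rbf2 fell by 0.97. Cdk2, the partner of Cyclin E, fell by 0.77 and Dp, the partner of E2F, by 0.63. CycD and Cdk4, which act earlier in G1, were at -0.08 and -0.05 and did not pass. The risers were fzr (0.48), the activator that keeps mitotic cyclins low after mitosis and into G1, mip130 (0.37) and mip120 (0.36), of the Myb complex with Rbf, and Cks85A (0.28). In this list 2 genes rose without pair 3 and 0 without pair 2 or pair 4, while 7 fell in each case.

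Mitotic genes that passed were mostly higher in G2, by smaller amounts. The 28 tested regulators of entry into and exit from mitosis comprised 9 rises and 1 fall around a median of 0.14, and 1, 7 and 3 rose without pairs 2, 3 and 4. Their share called was 35.7%, beside 25.1% over all genes. Sse (CG10583), the separase that cuts cohesin at anaphase, was at 6.13, 6.31 and 6.45 in G1 and at 6.89, 7.11 and 7.0 in G2 (0.70 ± 0.07, adjusted p = 0.00583). Mps1 (CG7643), a kinase of the spindle checkpoint, was at 5.70, 5.70 and 5.73 in G1 and at 6.20, 6.25 and 6.14 in G2 (0.49 ± 0.06, lost without pair 2 at adjusted p = 0.0562). Subunits of the anaphase-promoting complex accounted for 4 of the risers, APC4 (0.49), shtd (0.39), mr (0.31) and ida (0.28), and gwl, the Greatwall kinase, was at 0.43. Bub1, aurB, fzy and the securin gene pim were at 0.00, -0.12, -0.10 and 0.19 and did not pass. twe (CG4965), a Cdc25 phosphatase known for its role in meiosis, was at 5.65, 5.59 and 5.60 in G1 and at 4.39, 4.55 and 4.43 in G2. Its G2 level lay under 5, near the background of the array, which limits the size of its fall (-1.16 ± 0.07).

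Among 30 spindle genes rises outnumbered falls by 14 to 1 around a median of 0.29, and 5, 12 and 6 rose without pairs 2, 3 and 4. Klp67A (CG10923), a kinesin that shortens spindle microtubules, was at 7.91, 8.23 and 8.33 in G1 and at 9.24, 9.45 and 9.30 in G2 (1.17 ± 0.09, adjusted p = 0.00237). feo (CG11207), which bundles microtubules of the central spindle, was at 9.92, 10.16 and 10.04 in G1 and at 10.55, 10.92 and 10.78 in G2 (0.71 ± 0.06). Its paralogue sofe (CG1655) was among the 15 highest rises, from 6.67, 7.02 and 6.66 to 8.25, 8.42 and 8.30 (1.54 ± 0.07). Augmin genes, which nucleate microtubules within the spindle, ranged from 0.64 (dgt3) and 0.47 (dgt5) to -0.24 (msd1), which did not pass. mei-38 (CG14781), a spindle protein related to TPX2, fell from 7.61, 7.91 and 7.74 to 6.29, 6.75 and 6.59 (-1.21 ± 0.06). The list as written also counts Fas1, a fasciclin and no spindle protein, among its risers at 0.29. Leaving it out, after the counts were seen, gives 13 of 29.

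Kinetochore and centrosome genes were mixed. The 20 kinetochore and passenger genes comprised 6 rises and 2 falls around a median of 0.14, and 2 and 1 rose without pairs 2 and 4. cmet (CG6392), the kinesin CENP-E, went from 7.50, 7.99 and 7.78 to 8.34, 8.50 and 8.35 (0.65 ± 0.08). borr (CG4454), a subunit of the passenger complex, fell by 0.45 ± 0.05, a call lost without pair 2 or pair 4 (adjusted p = 0.0527 and 0.0557), which left 1 fall in the list, that of cid. Of 21 centrosome and centriole genes 5 rose and 5 fell (2 and 1 without pair 2 or without pair 4). The centriole assembly gene ana2 (CG8262) fell from 7.85, 8.07 and 7.95 to 6.97, 6.91 and 6.87 (-1.04 ± 0.08), while Sas-6, which acts with it at the start of centriole duplication, was at 0.66 and Cep135 (CG17081), of the same structure, rose by 0.66 ± 0.08. spd-2 (CG17286), which recruits material around the centriole, fell by 0.50 ± 0.06. Of 17 condensin and cohesin genes 5 fell and 2 rose (3 fell after subtraction of array medians, and 1, 2 and 2 fell and 0 rose without pairs 2, 3 and 4). The subunits of condensin differed. glu (CG11397, SMC4) was at -0.56 ± 0.06 and SMC2 at -0.30, while barr (CG10726) and Cap-G were at 0.31 ± 0.05 and 0.28. eco (CG8598), the acetyltransferase that locks cohesin during S phase, fell by 0.67 ± 0.08.

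**Figure D3:**
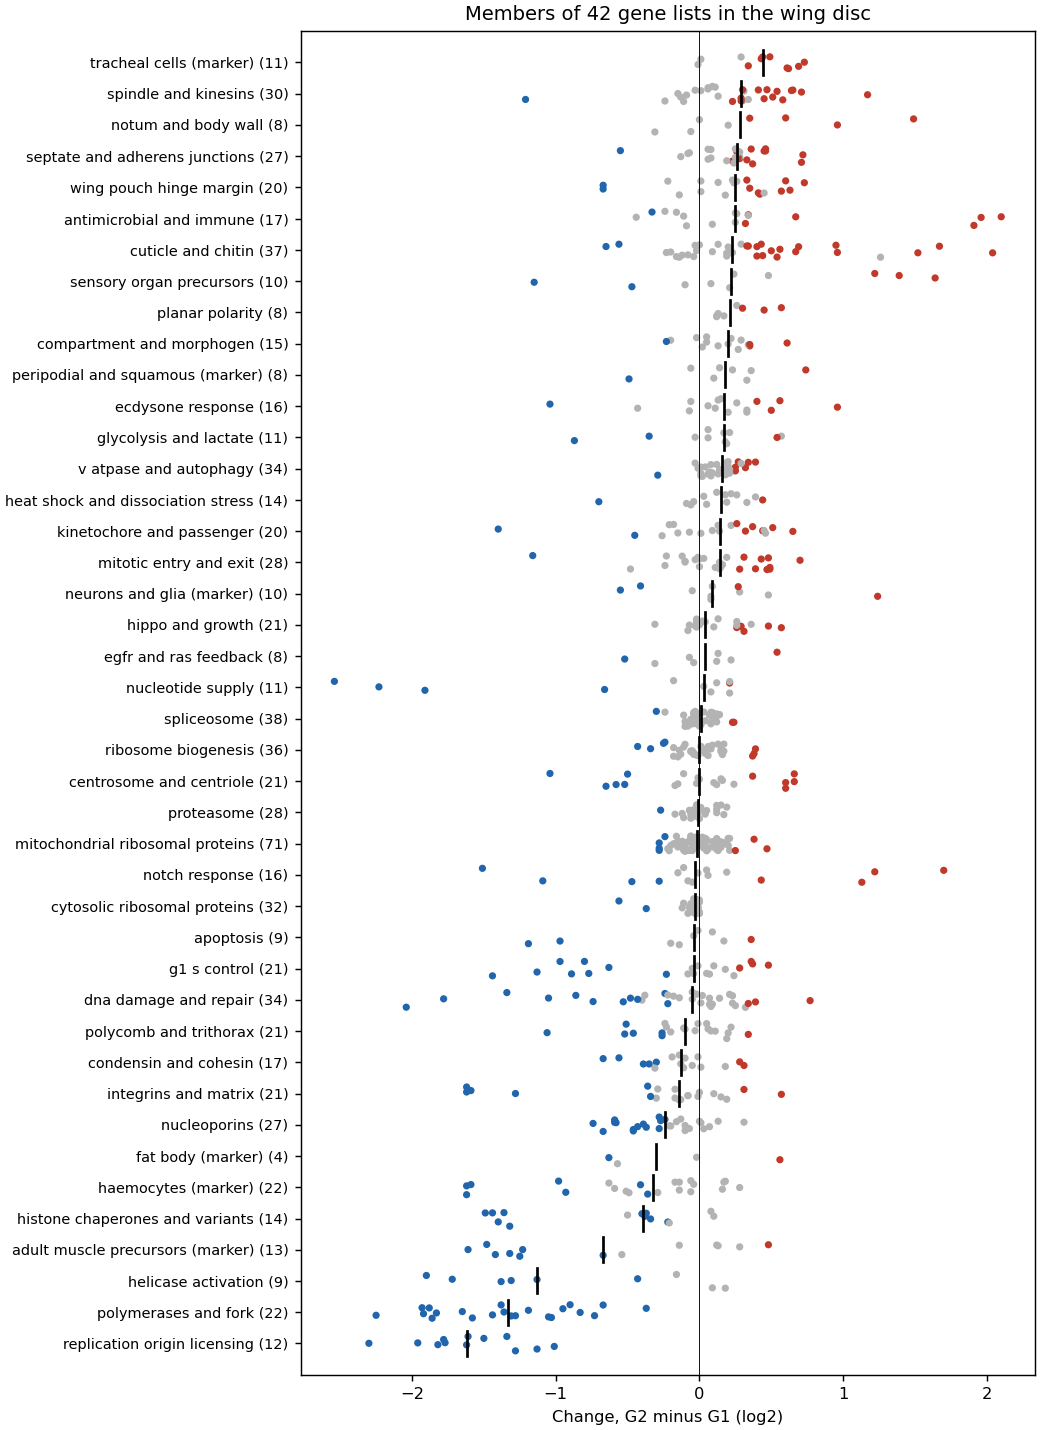
Change (log2, G2 minus G1) of each tested member of 42 gene lists as first written, ordered by list median (black bar), with the number tested in brackets; red rose, blue fell and grey did not pass. The licensing (-1.62) and fork (-1.33) lists lie lowest, most lists sit near the median of all genes (0.06), and the tracheal marker list is highest (0.44).

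The 15 highest rises were mostly not cell cycle genes. CG13023, a gene with no role stated in the sources used here, was at 5.22, 4.72 and 4.84 in G1 and at 8.80, 8.05 and 8.50 in G2, which is 3.52 ± 0.08 (adjusted p = 0.000428). Its G1 mean of 4.93 lay near background, which limits the size of this change. CG15353 was at 6.62, 7.47 and 6.52 in G1 and at 9.48, 10.76 and 9.06 in G2 (2.90 ± 0.15), with pair 3 higher than the others in both fractions. Ect3 (CG3132), of the beta-galactosidase family, was at 5.92, 5.62 and 5.86 in G1 and at 8.22, 8.29 and 8.65 in G2 (2.58 ± 0.11). The fractions were far apart in these 3 genes, and every pair changed by more than 2 on the log2 scale. The antimicrobial peptide genes were less even. Drs (CG10810, drosomycin) was at 6.31, 6.69 and 5.82 in G1 and at 9.02, 7.61 and 8.48 in G2, so that it changed by 0.92 in pair 3 and by 2.66 in pair 4. AttD (CG7629, an attacin) changed by 0.50 in pair 3 and 2.68 in pair 4, and both calls were lost without pair 2 (adjusted p = 0.112 for Drs and 0.178 for AttD) and without pair 4 (0.0888 and 0.147). Mtk (CG8175, metchnikowin) was at 4.76, 4.10 and 3.71 in G1 and at 6.61, 5.65 and 6.18 in G2 (1.96 ± 0.18). The G1 levels of Mtk were all under 5 and the G1 mean of AttD was 4.85, so the sizes of their changes are limited by background too. The immune list of 17 tested genes comprised 6 rises and 1 fall, and 2 rose without pair 2 or without pair 4.

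**Figure D4:**
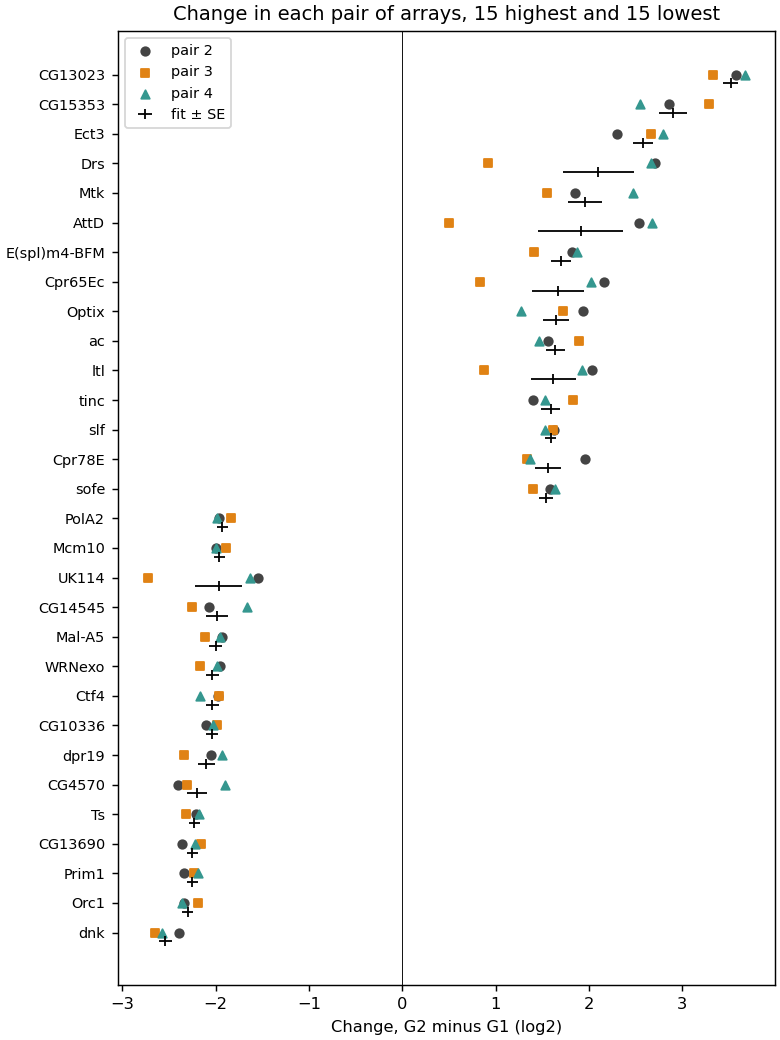
Change in each pair of arrays (symbols) and in the fit with its SE (black bars, n = 3 pairs) for the 15 highest rises and 15 lowest changes under the naming rule, on the log2 scale. The pairs lie close together in falls such as PolA2 and Ctf4 and apart in UK114, while among the rises pair 3 lies below the others for Drs (0.92), AttD (0.50), Cpr65Ec (0.83) and ltl (0.88).

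Other genes among the 15 highest included genes of patterning and cuticle. Optix (CG18455), a homeobox factor of the anterior wing, was at 5.50, 5.93 and 5.96 in G1 and at 7.44, 7.66 and 7.23 in G2 (1.65 ± 0.14). slf (CG3244), a lectin-like gene known for a role in cuticle, went from 6.43, 6.94 and 6.63 to 8.06, 8.56 and 8.16 (1.59 ± 0.06). tinc (CG31247), a transmembrane protein gene, went from 4.87, 4.38 and 4.97 to 6.27, 6.21 and 6.50, with a G1 level under 5. ltl (CG32372), a leucine-rich repeat gene, went from 5.10, 6.20 and 5.46 to 7.13, 7.08 and 7.40, and its call was lost without pair 2 (adjusted p = 0.0796) or pair 4 (adjusted p = 0.0628). At the other end, the 15 lowest held further genes besides those named above. CG13690 went from 9.60, 9.48 and 9.46 to 7.25, 7.31 and 7.24 (-2.25 ± 0.06), and CG10336 fell by 2.04 ± 0.06. CG4570 fell by 2.20 ± 0.11, dpr19, of the immunoglobulin family, by 2.10 ± 0.09 and the maltase gene Mal-A5 by 2.0 ± 0.07, and the changes of CG14545 and UK114 were -1.99 ± 0.12 and -1.97 ± 0.25. The G2 means of CG4570, CG14545 and UK114 lay at or under 5, which limits the sizes of their falls.

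Proneural and Notch pathway genes went both ways. The proneural factors that select bristle precursors were higher in G2. ac (CG3796) was at 6.62, 6.73 and 6.59 in G1 and at 8.18, 8.61 and 8.06 in G2 (1.64 ± 0.10, adjusted p = 0.00137). sc (CG3827), its neighbour on the X chromosome, was at 6.97, 7.52 and 6.89 in G1 and at 8.41, 8.70 and 8.42 in G2 (1.39 ± 0.09). The fractions did not overlap for either gene. Of 10 genes of sensory organ precursors 3 rose (ac, sc and Brd) and 2 fell, neur at -0.47 and nvy at -1.15. Without pair 4, 0 of these 10 fell. The members l(1)sc, ase, sens, phyl, pros, cpo, insc, meru and wor lay under the filter on dim probe sets and were not tested. Of 16 genes of the Notch response 4 rose and 4 fell, against 3 and 1 without pair 2 and 3 and 2 without pair 4. Members of the Bearded family, small inhibitors of the ubiquitin ligase that activates Notch ligands, did not share a direction. E(spl)m4-BFM (CG6099) rose from 8.61, 7.63 and 7.71 to 10.43, 9.04 and 9.58 (1.70 ± 0.11), Brd (CG3096) rose from 6.48, 6.95 and 6.22 to 7.78, 7.88 and 7.64 (1.22 ± 0.11), and Ocho rose by 1.13 and Tom by 0.43. E(spl)m6-BFM (CG8354) fell from 11.31, 11.02 and 10.98 to 9.79, 9.26 and 9.73 (-1.51 ± 0.11), and E(spl)malpha-BFM and E(spl)m2-BFM were at -0.05 and 0.05 and did not pass. The basic helix-loop-helix genes of the same locus, which are the repressors induced by Notch, were at -0.28 (E(spl)m3-HLH, which fell), -0.15 (E(spl)m7-HLH), -0.01 (E(spl)mdelta-HLH) and 0.06 (E(spl)mbeta-HLH).

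Some genes that mark regions of the disc differed between the fractions. The 8 notum and body wall genes comprised 4 rises and 0 falls around a median of 0.28, and 3 rose without pair 2 or without pair 4. eyg (CG10488), a Pax family factor of the notum, was at 6.47, 6.74 and 6.49 in G1 and at 7.98, 8.15 and 8.03 in G2 (1.49 ± 0.06, adjusted p = 0.000596). pnr (CG3978), a GATA factor of the dorsal midline, was at 7.52, 7.94 and 7.87 in G1 and at 8.82, 8.66 and 8.72 in G2 (0.96 ± 0.13). The 20 genes of the pouch, hinge and margin comprised 8 rises and 2 falls around a median of 0.25 (2 rose without pair 2 or without pair 4). Dll (CG3629), a homeobox gene of distal fate, rose by 0.73 ± 0.10, with a like change in its second probe set (0.74 ± 0.08), and caup (CG10605), of the Iroquois family, rose by 0.60 ± 0.05. The selector genes of the pouch, vg and nub, were at 0.13 and 0.01 and did not pass, while bab2 (CG9102) fell by 0.67 ± 0.11. Among 15 genes of compartments and morphogens 3 rose and 1 fell, a share of 26.7% that is near the 25.1% over all genes (1, 6 and 1 rose without pairs 2, 3 and 4). dpp (CG9885), the BMP ligand of the anterior boundary, rose from 7.40, 7.44 and 7.18 to 8.10, 7.98 and 7.77 (0.61 ± 0.06), and smo and Wnt6 by 0.35 each, whereas en and hh of the posterior compartment were at 0.13 and -0.20 and did not pass. The summed intensity of the pouch list was 8515 to 9479 in G1 and 9987 to 10615 in G2, and that of the notum list 1701 to 1931 and 2400 to 2651. 

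Markers of other cell types in the disc moved beside these genes. Adult muscle precursor genes comprised 7 falls and 1 rise among 13 tested, and their median was -0.67. twi (CG2956), which defines these cells, was at 10.87, 10.39 and 10.46 in G1 and at 9.52, 8.85 and 9.38 in G2 (-1.32 ± 0.10). Act87E (CG18290), a muscle actin, fell from 8.55, 8.15 and 8.15 to 6.87, 6.80 and 6.90 (-1.42 ± 0.10), beat-IIIc (CG15138) fell by 1.25 ± 0.09, and zfh1, htl and Him fell by 1.61, 1.48 and 1.23. The other members did not fall with them, as 5 did not pass, such as vg at 0.13, and 1 rose, kirre at 0.48. The list as written includes cher and Nrt, which are no markers of these cells. Removing them was decided after the counts were seen and took the median to -1.23 with the calls still at 1 and 7. Summed intensity of the list was 10860 to 13435 in G1 and 5068 to 7920 in G2, with lmd and nau under 5 in both. Only 3 fell without pair 2, and 7 without pair 3 or pair 4.

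The 22 tested haemocyte markers comprised 7 falls and 0 rises around a median of -0.32, and 3 fell without pair 2, while 3 rose without pair 3. The share called was 31.8%, where 25.1% of all genes were called and 9.25% fell. The largest falls were those of the basement membrane genes, which other cells secrete too. SPARC (CG6378), a collagen-binding protein, was at 12.29, 12.51 and 12.14 in G1 and at 10.50, 10.95 and 10.73 in G2 (-1.59 ± 0.09). Both chains of collagen IV, Col4a1 (CG4145) and vkg (CG16858), fell by 1.62 ± 0.08 and 1.62 ± 0.09. Among genes closer to the cell type, He (-0.98) and NimB4 (-0.93) fell, Hml (-0.49), Pxn (-0.59) and NimC1 (0.28) did not pass, and eater, srp, lz, PPO3, Tig and NimA were under 5 in both fractions. Summed intensity of the list was 20508 to 23476 in G1 and 15218 to 16156 in G2. The sum is of linear intensities, so a bright gene such as SPARC, which other cells secrete too, weighs heavily in it. Of 21 integrin and matrix genes 6 fell and 2 rose (3 and 4 fell and 0 rose without pairs 2 and 4), and besides those 3 genes the falls were trol (-1.28, perlecan), LanA (-0.36) and Pax (-0.34). This list had a share called of 38.1%, beside 25.1% over all genes.

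The tracheal list had the highest median, with 8 of 11 genes higher, 0 lower and a median of 0.44, but 1 rose without pair 2 and 1 without pair 4. emp (CG2727), a scavenger receptor, was at 9.89, 9.85 and 9.68 in G1 and at 10.54, 10.43 and 10.27 in G2 (0.61 ± 0.06). verm (CG8756), a chitin deacetylase, rose by 0.69 ± 0.09, and pio (CG3541), a matrix protein, by 0.49 ± 0.07. Of the risers verm, serp, knk and Gasp, genes of chitin and its matrix, are on the cuticle list too. The tracheal receptor gene btl and its ligand bnl were under 5 in both fractions, and esg was at -0.01. Summed intensity was 9471 to 10718 in G1 and 13249 to 14619 in G2. In the peripodial list odd rose by 0.74 and otk fell by 0.49, of 8 tested, a share of 25.0% that is near the 25.1% over all genes. The calls are 1 and 0 of 7 if otk, which is no marker of those cells, is left out as decided after the counts were seen. Its summed intensity was 3369 to 3625 in G1 and 3538 to 4471 in G2, ranges that overlap, and 5 rose without pair 3. Neuron and glia genes rose in 2 and fell in 2 of 10, a share of 40.0% beside the 25.1% over all genes. Among them moody (CG4322) was at 1.24 ± 0.11 from a level under 5 in G1 and nrv2 (CG9261) at -0.55 ± 0.06. The summed intensity of this list was 6529 to 6951 in G1 and 6809 to 7256 in G2, with brp, repo and fne under 5. Of 4 fat body genes 1 rose and 1 fell, with sums of 3130 to 3620 and 3557 to 3764, and Lsp2, Fbp1, Fbp2, Yp1, apolpp and Lip4 under 5. What part these cells have in the other results was not tested.

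Cuticle and chitin genes rose in 16 of 37 and fell in 2, with a median of 0.23, and these calls depend on the pairing. Without the pairing term 7 rose and 0 fell, and 2, 17 and 3 rose without pairs 2, 3 and 4. TwdlT (CG5812), of the Tweedle cuticle proteins, was at 3.71, 3.72 and 3.96 in G1 and at 5.69, 5.74 and 6.07 in G2 (2.04 ± 0.06), from a G1 level near background. Cpr64Aa (CG15006), a chitin-binding cuticle protein, was at 7.64, 9.19 and 7.54 in G1 and at 9.28, 10.45 and 9.20 in G2. It rose by 1.52 ± 0.10 and did not overlap between the fractions, narrowly, because pair 3 was high in both fractions. Idgf4 (CG1780), a chitinase-like growth factor, rose by 0.95 ± 0.11. Cpr65Ec (CG8634) and Cpr78E (CG7160) were among the 15 highest rises at 1.67 ± 0.28 and 1.56 ± 0.14, and Cpr78E lost its call without the pairing term (adjusted p = 0.082). Of 16 genes of the ecdysone response 4 rose and 1 fell, a share of 31.2% beside the 25.1% over all genes. The counts were 0 and 1 without the pairing term, without pair 2 or without pair 4. ImpE1 (CG32356), induced by ecdysone in discs, was at 9.47, 8.11 and 9.62 in G1 and at 10.73, 8.69 and 10.67 in G2 (0.96 ± 0.14), and its other probe sets gave 0.45 and 0.20, the last without a call. The receptor genes EcR and usp were at 0.11 and 0.33 and did not pass. chinmo (CG31666), a gene of the larval state that ecdysone turns down, fell from 6.97, 7.38 and 6.85 to 5.97, 6.24 and 5.87 (-1.04 ± 0.06).

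Of the junction and polarity genes some rose, and the others mostly did not pass. The 27 genes of septate and adherens junctions comprised 13 rises and 1 fall around a median of 0.26, against 10 and 1 without the pairing term, and 1, 8 and 1 rose without pairs 2, 3 and 4. shg (CG3722), E-cadherin, was at 7.08, 6.98 and 6.72 in G1 and at 7.84, 7.45 and 7.63 in G2 (0.71 ± 0.10). ed (CG12676), a cell adhesion protein, was at 8.47, 8.27 and 8.21 in G1 and at 9.28, 8.92 and 8.91 in G2 (0.72 ± 0.06). In the apical Crumbs complex crb was at 0.45, sdt at 0.46 and Patj at 0.46. The basolateral genes dlg1, scrib and l(2)gl were at 0.25, 0.28 and -0.07 and did not pass. No test compared these groups, and ed was the only riser of the list without pair 2 or without pair 4. Of 8 planar polarity genes 3 rose, fj (CG10917) by 0.57 ± 0.10, dgo (CG12342) by 0.45 ± 0.09 and fy (CG13396) by 0.30 ± 0.07 (0, 2 and 1 rose without pairs 2, 3 and 4). The planar polarity share called was 37.5%, beside 25.1% over all genes. In the Hippo and growth list 5 of 21 rose and 0 fell, a share called of 23.8% that is near the 25.1% over all genes. The rises numbered 1 after cyclic loess and 2 after quantile normalization, and 0, 3 and 0 without pairs 2, 3 and 4. The 5 risers included fj, sav (0.31) and mats (0.26), whereas yki, hpo and wts were at 0.02, -0.02 and 0.10 and did not pass.

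Nuclear pore genes fell in 14 of 27, with 0 higher and a median of -0.24, and without pairs 2, 3 and 4 the falls were 3, 10 and 3. Nup93-1 (CG11092), of the inner ring, was at 11.18, 11.20 and 11.15 in G1 and at 10.52, 10.66 and 10.57 in G2 (-0.59 ± 0.06). Nup43 (CG7671), of the outer ring, fell by 0.58 ± 0.07, and Nup54 (CG8831), of the central channel, by 0.59 ± 0.07. Falls occurred in the outer ring (Nup160 at -0.67, Nup107 at -0.46, Nup37 at -0.46), yet Elys, which starts pore assembly on chromatin, was at 0.31 and did not pass. Of 21 Polycomb and trithorax genes 6 fell and 1 rose (2, 4 and 3 fell without pairs 2, 3 and 4). That is a share called of 33.3%, beside 25.1% over all genes. esc (CG14941), E(z) and Su(z)12 (CG8013), the core of Polycomb repressive complex 2, fell by 1.06 ± 0.07, 0.52 and 0.51 ± 0.05, while Pc, Psc and Sce of complex 1 were at 0.05, -0.10 and -0.11 and did not pass. Sfmbt (CG16975), a Polycomb group protein outside complex 2, fell by 0.46 ± 0.06, a call lost without pair 2 or pair 4 (adjusted p = 0.0544 and 0.053). No test compared the complexes.

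General housekeeping groups moved little. Of 32 cytosolic ribosomal protein genes 2 fell and 0 rose, of 71 mitochondrial ones 4 fell and 3 rose, of 38 spliceosome genes 1 fell and 2 rose, of 28 proteasome genes 1 fell and of 36 ribosome biogenesis genes 4 fell and 3 rose, all at shares below the 25.1% over all genes. After subtraction of array medians the mitochondrial list had 2 falls and 5 rises and ribosome biogenesis 2 and 3, and after cyclic loess the spliceosome had 2 and 0. Without pair 2 or pair 4 these lists had 0 calls. In the V-ATPase and autophagy list 6 of 34 rose and 1 fell, a share of 20.6% that is below the 25.1% over all genes. After cyclic loess 3 rose, and without pair 2 or pair 4 the count was 0. The risers VhaPPA1-1 (0.39 ± 0.06), ATP6AP2 (0.34 ± 0.05) and VhaAC45 (0.32 ± 0.06) belong to the proton pump of acidic organelles. In the glycolysis list 1 of 11 rose and 2 fell, a share of 27.3% that is near the 25.1% over all genes. Pfk (CG4001), the committed step, rose by 0.54 ± 0.06 and fbp (CG31692), its counterpart in gluconeogenesis, was lower in each pair (-0.87 ± 0.06, adjusted p = 0.00186). Gpdh1 (CG9042), a glycerol phosphate dehydrogenase, was the other fall at -0.35 ± 0.07, and its call was lost without the pairing term (adjusted p = 0.297) and without any one of the pairs. Of 9 cell death genes 2 fell and 1 rose, a share of 33.3% beside the 25.1% over all genes. egr (CG12919), the fly tumour necrosis factor, fell from 8.59, 8.08 and 8.31 to 7.60, 6.38 and 7.43 (-1.19 ± 0.17), a call lost without the pairing term (adjusted p = 0.0552) and without pair 2 (adjusted p = 0.0649). Traf4 (CG3048), an adaptor of that pathway, fell by 0.97 ± 0.11. Debcl (CG33134), a Bcl-2 family member, rose by 0.36 ± 0.06, a call lost without pair 2 or pair 4 (adjusted p = 0.0868 and 0.0981). In the stress list Hsp68 rose by 0.44 and Atf3 fell by 0.70, of 14 tested (4 rose without pair 3). That share of 14.3% is below the 25.1% over all genes.

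Pairs differed in level in some groups of genes, as examined after the data were seen. The range of the 3 pair means was 0.18 for the median gene and exceeded 0.43 for 1 gene in 10. Among those 645 genes pair 3 lay farthest from the mean in 323, pair 2 in 229 and pair 4 in 93. Spn100A, a serpin, had the widest range, with pair means of 10.53, 8.48 and 10.40, and ImpE1 followed with 10.10, 8.40 and 10.15. Cuticle genes took the opposite order in part, such as Cpr64Aa at 8.46, 9.82 and 8.37. Spn100A still rose in each pair, from 9.95, 7.96 and 9.76 to 11.10, 8.99 and 11.04 (1.15 ± 0.07), and passed only with the pairing term (adjusted p = 0.00141 against 0.339). Of the 1619 genes called, 872 were also called without the term and 747 were not, and the median pair range was 0.17 in the former and 0.29 in the latter. Lists with wide ranges were the Notch response (0.50, with 10 of 16 genes over 0.43), the peripodial markers (0.47), ecdysone (0.46) and the haemocyte markers (0.41), whereas licensing (0.13), mitotic entry and exit (0.12) and the proteasome (0.07) varied little.

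**Figure D5:**
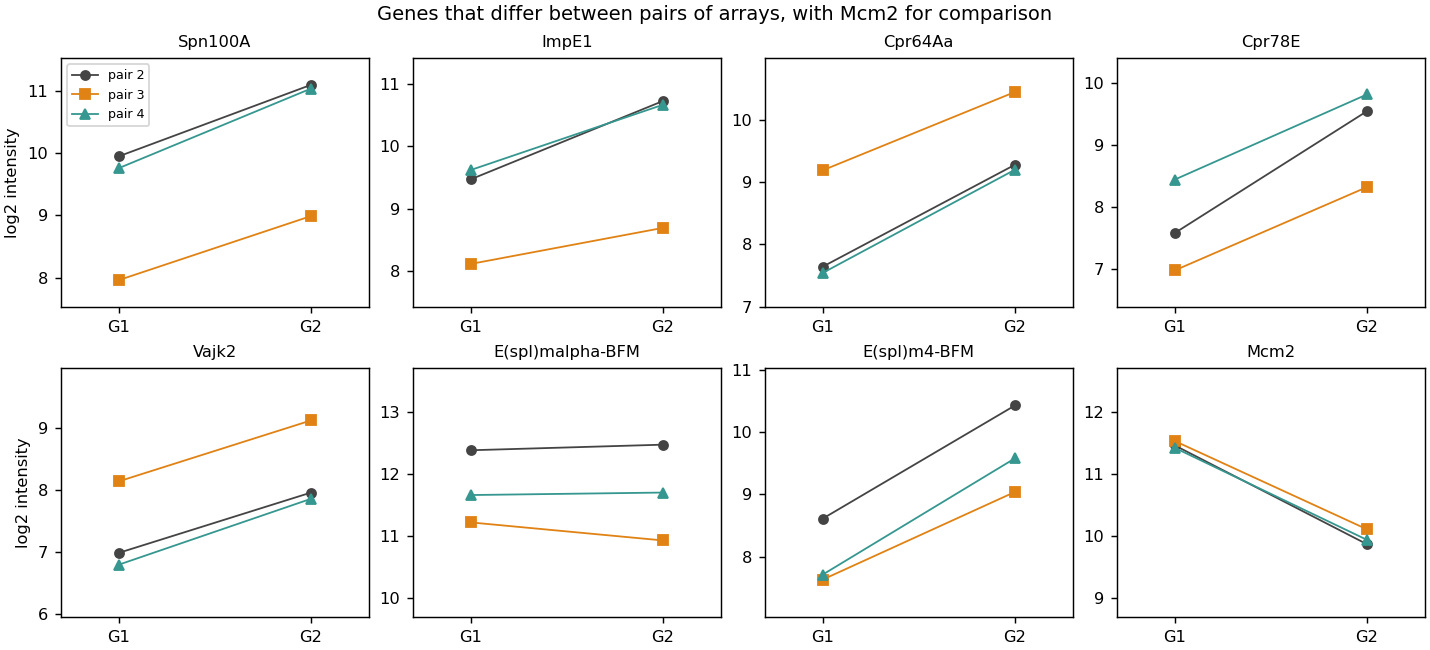
Level (log2 intensity) on the G1 and G2 array of each pair for genes chosen for their differences between pairs, with Mcm2 for comparison. In Spn100A and ImpE1 pair 3 lies lower and in Cpr64Aa and Vajk2 higher than the other pairs in both fractions, while the gene rises in each pair, and Mcm2 shows no such offset.

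Position along the chromosomes was described after the data were seen. On chromosome 4, 14 of 39 tested genes rose (35.9%) and 4 fell, against 13.7% to 16.8% rising on the other arms. There were 8 runs of at least 4 neighbouring tested genes with the same call. One run on chromosome 4 held Pur-alpha (0.56), Ephrin (0.56), Eph (0.57), mav (0.56) and gw (0.27), with a membrane ligand for axon guidance and its receptor side by side, and another on the X chromosome held CG13377 (0.58), CG3777 (0.67), ac and sc. Over all genes, 17.8% of the next tested genes after a riser also rose, against 15.8% of all such genes, and 12.8% against 9.25% for falls.

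Set against S2 cells, the change in the disc was tested for a difference from the S2 change gene by gene. Over all 6445 genes 12.3% differed. Probe sets for this test were kept by their levels in the disc alone. For a gene with little signal in S2, a difference can reflect the disc change alone. Of the 126 named genes 78 differed, but they were named for their change in the disc, so the share is given without a reading. The fall of Orc1 in the disc (-2.30) stood beside -0.15 in S2, and that of dup (-1.82) beside -0.02, differences of -2.15 ± 0.13 and -1.81 ± 0.24. Klp67A was at 1.17 in the disc and 1.76 in S2, and CycB3 at -0.01 and 0.77. sofe, at 1.54 and 1.24, did not pass this test (difference 0.30 ± 0.18, adjusted p = 0.325).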

How the data were processed

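RNA of sorted wing disc cells was measured on Affymetrix Drosophila arrays, from 100 ng of total RNA per the labels' protocols. The authors deposited RMA intensities, made with R 2.15.2 per the submitters' processing notes. The deposited intensity values are on a linear scale, and log2 was taken here. Of 18952 probe sets 183 controls were dropped, and 7930 with log2 of at least 5 on 3 or more of the 6 disc arrays were kept. Array signals hold no read depth, and the number of arrays limits precision.

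The fit was limma 3.58.1 in R 4.3.3 with the pair and the fraction as terms, two-sided, with Benjamini-Hochberg adjustment over the 7930 probe sets and a threshold of 0.05. The number in the title pairs the arrays. Deviations from group means correlated at 0.49, 0.54 and 0.37 within pairs and at -0.44 to 0 between them. The deviations of the 3 arrays of a group sum to 0, so positive values within pairs force lower values between pairs. The difference from S2 cells was an interaction over 12 arrays, on the probe sets kept by their disc levels. Code was tested on simulated data. Tables and figures used Python 3.11.15, pandas 2.3.3, numpy 2.4.6, scipy 1.17.1 and matplotlib 3.10.9.

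A gene was taken from its brightest kept probe set with 1 gene in the platform annotation (6445 genes). Of 315 genes with several probe sets, 2 had calls in opposite directions (lola and lqfR) and 89 were called in some only. Genes were named by a rule: the 15 highest and 15 lowest changes with 1 direction in all 3 pairs and log2 of at least 6 in the higher fraction, the 3 smallest p-values of each list with at least 3 calls, and the sort check genes (126 in all). Other genes named were chosen after their values were seen. The members and lists were chosen with earlier results of these data known. For 7 lists, 11 tested members that did not belong were recognised only after the counts were seen, so the lists are reported as first written and the trimmed counts as an alternative. Names that were not matched to a single gene symbol, such as ctf4, Dl and SA, dropped out of their lists and are not in the counts.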

Additional observations from a re-analysis of the deposited data

Results flagged for a closer look

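These genes are listed because their change between the fractions differed between the wing disc and S2 cells by the test of the difference itself (limma interaction over 12 arrays, adjusted p under 0.05). Values are the disc change minus the S2 change on the log2 scale, each from 3 pairs in either cell type, and they cover 78 of the 126 named genes. A negative value means that the gene was relatively lower in G2 in the disc. Probe sets were kept by their disc levels alone, and no S2 level entered the choice. A gene with little or no signal in S2 can thus be listed through its disc change alone, and this was not tested.

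Among genes of origins and forks the differences were Orc1 (-2.15), dup (-1.81), PolA2 (-1.53), Mcm10 (-1.45), Prim1 (-1.42), RecQ4 (-1.37), PolE2 (-1.33), Cdc45 (-1.25), cutlet (-1.21), Ctf4 (-1.19), Mcm2 (-1.10), Sld5 (-0.99) and PCNA (-0.64). In deoxynucleotide supply and chromatin assembly they were cid (-1.66), CG12892 of chromatin assembly factor 1 (-1.41), dnk (-1.12), RnrL (-1.06), Slbp (-1.01), Ts (-0.97) and asf1 (-0.78). For genes of cell cycle control and mitosis they were twe (-1.36), mei-38 (-1.13), spd-2 (-0.98), borr (-0.79), CycB3 (-0.78), CycE (-0.67), Skp2 (-0.60), Cep135 (-0.60) and Klp67A (-0.59). Other named genes with negative values were vkg (-1.77), mms4 (-1.62), Col4a1 (-1.59), Act87E (-1.55), E(spl)m6-BFM (-1.53), egr (-1.46), SPARC (-1.45), Mal-A5 (-1.42), CG10336 (-1.32), CG4570 (-1.30), CG13690 (-1.25), dpr19 (-1.24), twi (-1.13), nrv2 (-1.06), chinmo (-0.98), beat-IIIc (-0.87), esc (-0.85), WRNexo (-0.72), CG14545 (-0.66), bab2 (-0.57) and fbp (-0.51).

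Patterning, Notch pathway and adhesion genes with positive values were caup (0.67), ed (0.79), pnr (0.98), Brd (1.09), dpp (1.13), sc (1.35), eyg (1.51), Optix (1.63), ac (1.75) and E(spl)m4-BFM (1.87). Antimicrobial peptide genes were at CecB (1.56), AttD (1.93), Mtk (2.05) and Drs (2.20), and without pair 2 or pair 4 Drs and AttD did not pass in the disc. CecB changed by 0.67 in the disc and by -0.89 in S2, and its disc call was lost without the pairing term (adjusted p = 0.139). Genes of cuticle, trachea and the ecdysone response were at emp (0.71), verm (0.74), ImpE1 (0.82), Cpr64Aa (0.97), Idgf4 (1.07), Cpr78E (1.41), Cpr65Ec (1.66), TwdlT (1.86) and slf (2.00). The remaining genes were tinc (1.65), ltl (1.85), Ect3 (2.86), CG15353 (3.34) and CG13023 (3.47). Disc tissue and a cultured line differ in much besides the fraction, and no cause of these differences was tested.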

How the results depend on the processing

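The count of probe sets that differed was 1913. It was 1017 without the replicate block and 857 with no filter on dim probe sets, where 18769 were tested. Leaving out a pair gave 518 to 1749, with 518 without pair 2 and 583 without pair 4, where fewer arrays were fitted. It was 2681 with an intensity trend in the prior and 1695 to 2089 in the remaining settings. The count of those changed at least 2-fold was 220 and ran from 188 to 234. Distinct list members that passed numbered 284, against 197 without the replicate block, 159 with no filter and 114 to 260 without a pair. Trimming 7 lists after their counts were seen gave 282. It moved the muscle precursor median from -0.67 to -1.23, ribosome biogenesis from 4 falls of 36 to 3 of 32, spindle rises from 14 of 30 to 13 of 29, and peripodial falls from 1 of 8 to 0 of 7. Medians of the other 3 trimmed lists went from 0.03 to -0.08 (nucleotide supply), 0.22 to 0.21 (sensory organ precursors, still 3 and 2) and stayed at -0.05 (DNA damage and repair). CycB3, at -0.01, was at 0.01 after subtraction of array medians and ran from -0.04 to 0.01 when a pair was left out (0.01 without pair 3), and the cause was not tested. Of the 126 named genes 17 changed call without the replicate block, 26 with no filter, and 42, 9 and 39 without pairs 2, 3 and 4. The difference from S2 was called for 78 of them, and for 66 without the replicate block. Shares of promoters with an E2F word were not run, because no promoter sequences were used here.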
